A study of Mus musculus with 6 samples.

Results

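Matrix metalloproteinases are zinc-dependent enzymes that cut proteins of the extracellular matrix, and the tissue inhibitors of metalloproteinases (TIMPs) bind and block them. Transcripts of 10 genes of this system, 8 metalloproteinases (Mmp2, Mmp3, Mmp9, Mmp10, Mmp12, Mmp13, Mmp14 and Mmp19) and 2 inhibitors (Timp1 and Timp3), were read in livers of mice overdosed with acetaminophen (APAP) and of mice given saline. They were found by gene symbol, 1 row each, among the 34745 genes of the expression table, and all 10 were among the 13734 genes with enough counts to be tested. Bulk RNA-Seq was carried out on whole livers. WT mice were fasted for 12 hours and received APAP (300 mg/kg) or saline by intraperitoneal injection, and the APAP livers were taken 12 hours later. The samples comprise 3 livers per group, of which 2 APAP libraries (replicates 1 and 3) and 3 libraries named WT1, WT2 and WT3 were analysed. WT is the genotype label of all samples, so the last 3 were taken for the saline group from the names of the remaining columns, which carry APAP, and all comparisons depend on this. The library of APAP replicate 2 was not used here. The methods of the study name adult male C57BL/6J mice, which the sex-linked genes of WT1, WT2 and WT3 do not match (below). The study states in general that its experiments were repeated on separate biological material, and the labels do not tie a library to an animal. The p-values measure the spread between these libraries.

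In background terms, most metalloproteinases are secreted as inactive proenzymes in which a cysteine of the propeptide holds the catalytic zinc, and they become active when other proteases cut the propeptide off. In a healthy liver the sparse matrix of the sinusoids is turned over slowly. After injury, collagenases, stromelysins and elastases made by hepatocytes, stellate cells, macrophages and neutrophils take part in clearing matrix and debris, and many of their genes are known to answer to transcription factors of the AP-1 family.

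The libraries held between 13378445 and 15976339 counts, and the detection floor of 3 counts equalled between 0.176 and 0.269 CPM (counts scaled to a common library size). The liver label was read from hepatocyte markers, with albumin (Alb) taking between 6.56% and 11.3% of all counts. Sex-linked genes separated the libraries in the same way as treatment did. Xist, which coats the silenced X chromosome of females, had a level of 0.764 and 1.73 CPM with APAP and of 289.6, 914 and 882 CPM with saline. The Y-linked gene Ddx3y had 1344 and 998 counts in APAP and 0, 0 and 1 in saline. By these genes the libraries taken for saline read as female and the APAP libraries as male, although the study names male mice. The cause of this difference was not tested. The effects of treatment and of sex-linked differences cannot be told apart in any value below. Since these are bulk livers, more cells of a type and more RNA per cell cannot be told apart either.

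Of the 10 genes, 4 rose with APAP (Mmp3, Mmp10, Mmp12 and Mmp13) and 0 fell, at an adjusted p under 0.05 by the quasi-likelihood test of edgeR, adjusted by Benjamini-Hochberg over all 13734 genes. In the same test, 7.23% of all genes were called, 3.7% of them higher and 3.53% lower as shares of the genes tested. The 4 genes had at most 7 counts in any saline library, so they passed the filter on low counts only through the APAP libraries. Genes admitted in this way can be called higher but not lower. The same holds for Mmp8, Fosl1, Fosb and other listed genes with few saline counts, described below. With at least 10 counts required in every library, the 4 were not tested. The APAP libraries lay above all saline libraries in 7 of the 10 genes and below them in 1, where 24% and 20.1% of all genes did so. At the thresholds of the study (fold change 1.5, P under 0.05), applied here to the unadjusted P, 7 were higher and 1 was lower, beside 12.3% and 11.2% of all genes. The median log2 fold change of the 10 genes was 2.57, against 0.03 for all genes tested. Since the 10 genes were chosen with earlier results of these data known, these shares and medians are descriptions only. The number called higher was 7 with edgeR's likelihood ratio test and with its exact test. Those tests also called more of all 13734 genes higher, 966 and 949 against 508. The number was 5 with DESeq2 and with scaling to library size only, and 4 with RLE and with upper-quartile scaling. Each library was also left out in turn. Without an APAP library the APAP group is 1 library, which those fits assume to vary like the saline libraries, so such values describe a single APAP liver against saline.

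**Figure D1:**
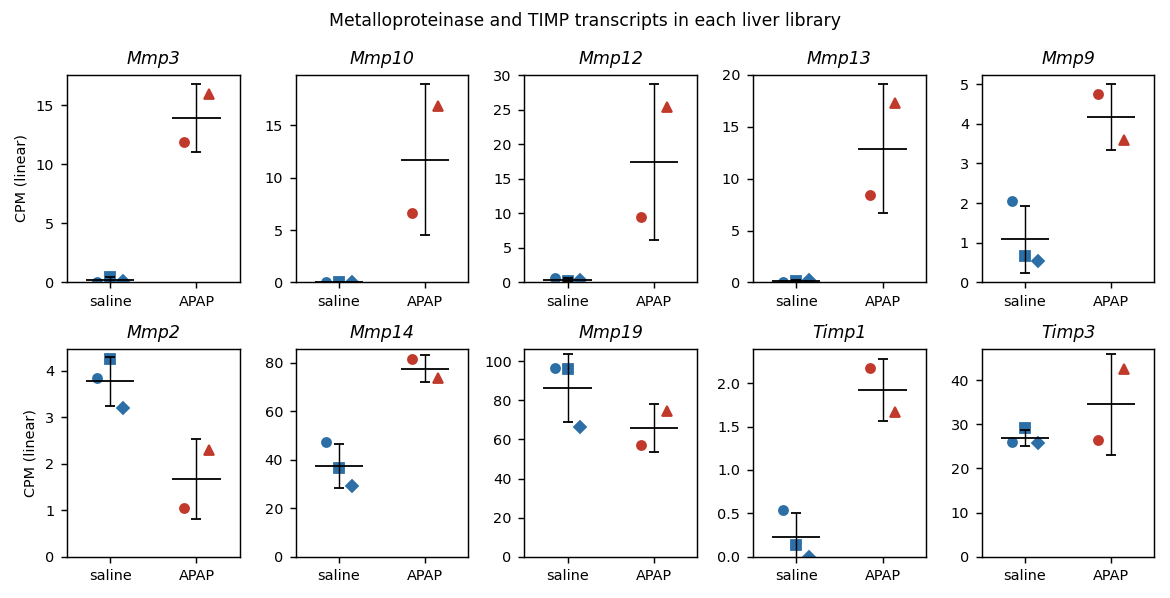
CPM (linear axes, each from 0) of the 8 metalloproteinases and 2 inhibitors in the 3 saline libraries (blue; circle WT1, square WT2, diamond WT3) and the 2 APAP libraries (red; circle replicate 1, triangle replicate 3). Horizontal bars are means and error bars are SD. Mmp3, Mmp10, Mmp12 and Mmp13 sit near 0 in saline and between 6.64 and 25.4 CPM in APAP, while the groups overlap for Mmp19 and Timp3.

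The 4 genes that rose are neighbours. They lie on chromosome 9 of GRCm38, where 10 metalloproteinase genes follow each other within 427.1 kb in the order Mmp13, Mmp12, Mmp1b, Mmp3, Mmp1a, Mmp10, Mmp8, Mmp27, Mmp20 and Mmp7. The 120 bases before the RefSeq start sites (build GRCm38.p6) are printed for the 4 genes, because a window of each holds the AP-1 motif. A window is also printed for their neighbour Mmp8, whose transcript was also called higher and whose window holds none. Each reads 5′ to 3′ on the strand of the gene, the last base lies just before the start site, and capitals mark the AP-1 motif TGANTCA and the TATA motif TATAAA. For Mmp12 the window of the second of its RefSeq starts is shown, because that of the first holds no AP-1 motif.
Mmp3, chr9:7445702-7445821, plus strand: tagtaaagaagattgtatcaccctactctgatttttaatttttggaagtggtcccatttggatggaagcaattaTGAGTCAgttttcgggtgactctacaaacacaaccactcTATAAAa
Mmp10, chr9:7502222-7502341, plus strand: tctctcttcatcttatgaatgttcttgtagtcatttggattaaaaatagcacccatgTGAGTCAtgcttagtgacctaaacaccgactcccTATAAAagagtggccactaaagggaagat
Mmp12, chr9:7347254-7347373, plus strand: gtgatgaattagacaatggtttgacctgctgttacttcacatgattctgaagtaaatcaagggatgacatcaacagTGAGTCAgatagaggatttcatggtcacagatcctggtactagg
Mmp13, chr9:7272394-7272513, plus strand: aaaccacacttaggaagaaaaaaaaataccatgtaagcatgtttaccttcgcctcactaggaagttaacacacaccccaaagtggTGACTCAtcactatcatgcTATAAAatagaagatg
Mmp8, chr9:7558309-7558428, plus strand: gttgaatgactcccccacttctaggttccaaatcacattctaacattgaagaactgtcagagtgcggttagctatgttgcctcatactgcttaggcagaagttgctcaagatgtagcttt

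Transcripts of the stromelysins were nearly absent from saline livers. Mmp3 (ENSMUSG00000043613, chr9:7445822-7455972, plus strand), stromelysin 1, which cuts proteoglycans, laminin and fibronectin and activates other proenzymes, had 203 and 258 counts in APAP replicates 1 and 3 and 0, 7 and 2 counts in WT1, WT2 and WT3. Both APAP libraries were far above every saline library, of which only WT2 passed the floor of 3 counts. Its level was 13.9 ± 2.84 CPM (SD, n = 2) in APAP and 0.1995 ± 0.239 CPM (SD, n = 3) in saline. Mmp3 rose 62.8-fold (log2 fold change 5.97, SE 0.72, adjusted p = 0.007 in edgeR's quasi-likelihood test). The ratio of the summed counts, corrected for library size, was 63.5, with an exact 95% interval of 33.2 to 139.8 that covers counting error only. Without WT2 its log2 fold change was 7.38.

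Mmp10 (ENSMUSG00000047562, chr9:7502352-7510238, plus strand), stromelysin 2, a close relative of Mmp3 with a similar range of substrates, had 113 and 272 counts in APAP and 0 in each saline library. It was the only one of the 10 genes with no read in any saline library. Its level in APAP was 6.64 and 16.8 CPM. Against the floor of 3 counts in a library, Mmp10 was at least 43.6-fold higher with APAP. The bound was 24.7-fold from APAP replicate 1 alone and 62.5-fold from replicate 3 alone (adjusted p = 0.010 with both, edgeR's quasi-likelihood test). Of the 50-base words of the Mmp10 transcript, 8.37% occur in other genes, the closest of which is Mmp3, so a small part of its reads could have been assigned to Mmp3 or the reverse.

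Mmp13 (ENSMUSG00000050578, chr9:7272514-7283333, plus strand) encodes collagenase 3, a main enzyme of fibrillar collagen breakdown in rodents. It had 144 and 279 counts in APAP and 0, 2 and 4 in saline, so that only WT3 passed the floor. Its level was 12.9 ± 6.21 CPM (SD, n = 2) against 0.133 ± 0.134 CPM (SD, n = 3). Mmp13 rose 84.8-fold (log2 fold change 6.41, SE 0.70, adjusted p = 0.005 in edgeR's quasi-likelihood test). The ratio of summed counts was 87.4, with an exact 95% interval of 39.8 to 239.6 that covers counting error only. The log2 fold change was 5.80 without APAP replicate 3 and 7.26 without WT3.

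Mmp12 (ENSMUSG00000049723, chr9:7344381-7369499, plus strand), macrophage elastase, had 161 and 411 counts in APAP and 7, 3 and 6 counts in saline. It was the one gene of the 4 with reads in every saline library. Its level was 17.4 ± 11.3 CPM (SD, n = 2) in APAP and 0.409 ± 0.214 CPM (SD, n = 3) in saline. Mmp12 rose 43.1-fold (log2 fold change 5.43, SE 0.60, adjusted p = 0.006 in edgeR's quasi-likelihood test), and the log2 fold change was 4.53 without APAP replicate 3. The ratio of summed counts was 44.3, with an exact 95% interval of 27.1 to 78.1 that covers counting error only. The gene overlaps 1261 bp of Mmp1b on the other strand, but Mmp1b had no read in any library. Mmp3, Mmp10, Mmp12 and Mmp13 stayed under an adjusted p of 0.05 in 7 of 7 other settings that tested them with all libraries. With 1 saline library left out, the values were highest without WT2, at 0.023, 0.045, 0.043 and 0.049 in edgeR's quasi-likelihood test. These fits used the same APAP counts that admitted the 4 genes, so they give no separate support.

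The 4 genes differed between the APAP livers themselves. The CPM of replicate 3 was 2.53 times that of replicate 1 for Mmp10, 2.69 times for Mmp12 and 2.04 times for Mmp13, but 1.34 times for Mmp3. The reverse held for the gelatinase gene Mmp9, which was 1.33 times higher in replicate 1, and for Timp1, which was 1.30 times higher there. With 1 library each, these ratios have no replicate check.

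**Figure D2:**
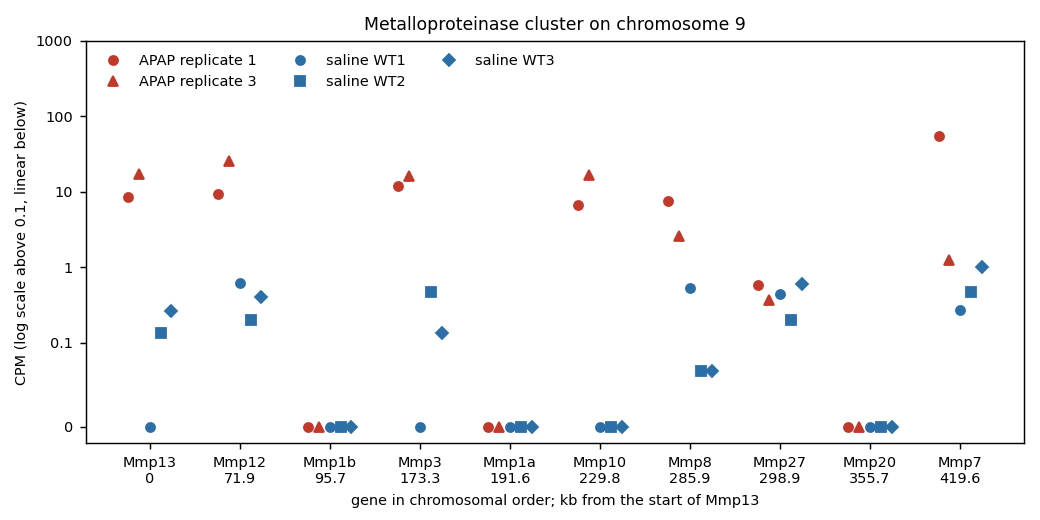
CPM of the 10 metalloproteinase genes of the chromosome 9 cluster in each library, in chromosomal order with the distance of each gene in kb from the start of Mmp13. The axis is logarithmic above 0.1 and linear below, red marks APAP and blue saline. Mmp13, Mmp12, Mmp3, Mmp10 and Mmp8 are higher in both APAP libraries, Mmp1a, Mmp1b and Mmp20 are at 0 throughout, and Mmp7 is high in APAP replicate 1 only.

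The other 6 genes of the cluster did not move as 1 block. Mmp1a, Mmp1b and Mmp20 had no read in any of the 5 libraries, although Mmp1b and Mmp1a lie on either side of Mmp3. Mmp8, neutrophil collagenase, had 128 and 42 counts in APAP and 6, 1 and 1 in saline. It too passed the filter on low counts only through the APAP libraries. Mmp8 rose with a log2 fold change of 4.57 (SE 0.90, adjusted p = 0.034 in edgeR's quasi-likelihood test), but the adjusted p was 0.210 without APAP replicate 1, 0.126 without WT2 and 0.065 without WT3, and the log2 fold change was 3.59 and 6.10 without APAP replicate 1 and without WT1. Mmp27 had 10 and 6 counts against 5, 3 and 9 and was too low to be tested. Mmp7, matrilysin, which epithelial cells make, had 918 counts in APAP replicate 1 and 20 in replicate 3, against 3, 7 and 15 in saline. Its log2 fold change of 5.51 (SE 1.37, adjusted p = 0.060) did not pass edgeR's quasi-likelihood test and was 1.07 without APAP replicate 1. Cholangiocyte markers differed among themselves between the APAP livers. Krt19 had 402 and 44 counts, Epcam 140 and 39 and Krt7 107 and 34, while Sox9 had 553 and 566 and Cldn4 8 and 9. The part of these cells in the Mmp7 value was not tested.

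Start-proximal sequence of the cluster genes was then read. In the 250 bases before the start, TGANTCA (sought on both strands, and the same on both) was found in 6.75% and TATAAA (both strands) in 12.4% of the 32851 RefSeq promoters, and both together in 1.21%. Of the 10 genes described here, 7 had an entry (not Mmp2, Mmp9 and Mmp19). The first base of TGANTCA stood at −46 in Mmp3, −63 in Mmp10 and −35 in Mmp13, counted from the start, and TATAAA at −7, −29 and −16. In Mmp12 the motif was at −44 of the second start and absent before the first, and TATAAA was found before neither. Mmp14, Timp1 and Timp3 held neither motif. Within the cluster, the motifs were not limited to genes with reads. TGANTCA and TATAAA also stood before Mmp1a, Mmp1b and Mmp20, which had no read, and before the first start of Mmp7, while Mmp8 and Mmp27 held neither. The NF-κB motif (both strands, 1.21% of promoters) and the STAT motif TTCNNNGAA (both strands, 7.02%) were in none of the 7 entries. The ETS motif CAGGAA (both strands, 25.7%) was before Mmp3, Timp1 and Timp3. A match is a description of letters in this window.

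The gelatinases went in different directions. Mmp9 (ENSMUSG00000017737, chr2:164940780-164955850, plus strand), gelatinase B, which neutrophils store in granules and which cuts denatured collagen and basement membrane collagen, had 81 and 58 counts in APAP and 23, 10 and 8 in saline. The groups did not overlap, with WT1 the highest of the saline libraries. Its level was 4.17 ± 0.830 CPM (SD, n = 2) against 1.09 ± 0.847 CPM (SD, n = 3). The log2 fold change was 1.97 (SE 0.63), and the adjusted p of 0.113 in edgeR's quasi-likelihood test missed the threshold. Without WT1 the values were 2.80 and 0.044, without WT2 they were 1.70 and 0.291, and without WT3 1.63 and 0.181.

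Mmp2 (ENSMUSG00000031740, chr8:92827328-92853417, plus strand), gelatinase A, which stellate cells and fibroblasts make, was the 1 gene of the 10 with both APAP libraries below all saline libraries. It had 18 and 37 counts in APAP and 43, 64 and 48 in saline. Its level was 1.67 ± 0.869 CPM (SD, n = 2) against 3.77 ± 0.527 CPM (SD, n = 3). The log2 fold change of −1.17 (SE 0.47) had an adjusted p of 0.178 in edgeR's quasi-likelihood test and was not under 0.05 in any of 13 other settings.

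Mmp14 (ENSMUSG00000000957, chr14:54431612-54441265, plus strand) encodes the membrane-bound enzyme MT1-MMP, which cuts collagen at the cell surface and activates the Mmp2 proenzyme. It was an abundant transcript, with 1384 and 1189 counts in APAP and 526, 548 and 434 in saline. Both APAP libraries were above every saline library. Its level was 77.4 ± 5.53 CPM (SD, n = 2) against 37.5 ± 9.13 CPM (SD, n = 3), which is a log2 fold change of 1.05 (SE 0.25). The adjusted p was 0.053 in edgeR's quasi-likelihood test, and it was under 0.05 in 7 of 13 other settings, in which the log2 fold change ranged from 0.89 to 1.47.

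Mmp19 (ENSMUSG00000025355, chr10:128790953-128800824, plus strand), a secreted enzyme that cuts basement membrane proteins, had 974 and 1208 counts in APAP and 1079, 1449 and 995 in saline. Its groups overlapped, since APAP replicate 3 lay above WT3. The level was 65.9 ± 12.3 CPM (SD, n = 2) against 86.5 ± 17.3 CPM (SD, n = 3), and the log2 fold change was −0.39 (SE 0.26, adjusted p = 0.407 in edgeR's quasi-likelihood test). Scaling to library size only, which moved the median of all genes from 0.03 to 0.42, brought that of Mmp19 to −0.0049. The gene shares 789 bp with Tmem198b on the other strand, and 25.4% of its 50-base words occur there. Tmem198b had between 39 and 97 counts in any library, and a strand setting of the counting is not given in the sources used here.

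Of the inhibitors, Timp1 (ENSMUSG00000001131, chrX:20870166-20874735, plus strand), the secreted inhibitor that is known to rise in inflamed and fibrotic liver, was low in all libraries. It had 37 and 27 counts in APAP and 6, 2 and 0 in saline. Every APAP library was above every saline library. The level was 1.92 ± 0.357 CPM (SD, n = 2) against 0.224 ± 0.280 CPM (SD, n = 3). The ratio of summed counts was 9.92, with an exact 95% interval of 4.74 to 24.0 that covers counting error only and not the spread between libraries. With a log2 fold change of 3.17 (SE 1.004), the adjusted p of 0.110 in edgeR's quasi-likelihood test missed the threshold. It was 0.007 in the likelihood ratio test and 0.011 in edgeR's exact test. These were the only 2 of 7 other settings with all libraries under 0.05, and DESeq2 gave 0.051. With any 1 saline library left out, Timp1 also missed the threshold.

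Timp3 (ENSMUSG00000020044, chr10:86300372-86349506, plus strand), which binds to the matrix and also blocks the sheddase ADAM17, had 449 and 689 counts in APAP and 289, 438 and 385 in saline. In CPM the groups overlapped, with APAP replicate 1 at 26.4 among saline values of 25.9, 29.1 and 25.7 and replicate 3 above them at 42.6. The log2 fold change was 0.36 (SE 0.25, adjusted p = 0.430 in edgeR's quasi-likelihood test) and was −0.039 without APAP replicate 3. Timp1 lies inside Syn1 and Timp3 inside Syn3, each on the other strand. Both of these neighbours had at most 20 counts in a library. Of the 50-base words of Timp3, 36.3% occur in other genes, the closest of which is Syn3.

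**Figure D3:**
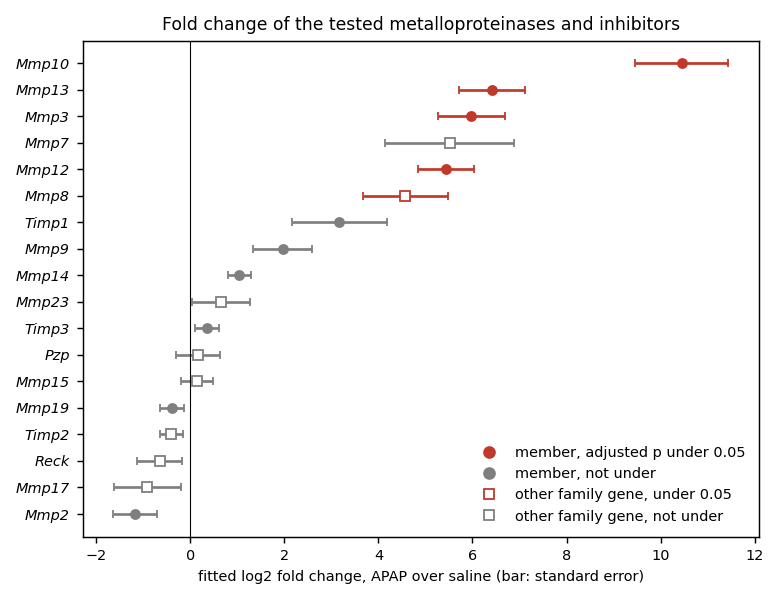
Fitted log2 fold change of APAP over saline with its standard error for the 10 genes (circles) and the other metalloproteinases and inhibitors that could be tested (squares). Red marks an adjusted p under 0.05 in edgeR's quasi-likelihood test. Mmp10, Mmp13, Mmp3, Mmp12 and Mmp8 passed. The value of Mmp10 depends on the prior count, because saline had 0 counts.

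Levels of different genes were compared per length, as CPM per kb of exon. In saline the order was Mmp19 (24.5 ± 4.90, SD, n = 3), Mmp14 (6.29 ± 1.53), Mmp15 (3.58 ± 1.24) and Mmp2 (1.12 ± 0.156). These 4 did not overlap each other across the saline libraries. Below Mmp2, Mmp9 was at 0.307 ± 0.239, and Mmp3, Mmp12 and Mmp13 were at 0.111 ± 0.133, 0.0565 ± 0.0296 and 0.0499 ± 0.04999, which do not differ beyond their spread. In APAP, Mmp19 was at 16.2 and 21.1 CPM per kb and Mmp14 at 13.6 and 12.3, in replicates 1 and 3. Mmp3 followed at 6.62 and 8.85, Mmp10 at 3.86 and 9.76, Mmp13 at 3.17 and 6.45 and Mmp12 at 1.31 and 3.51, while Mmp15 was at 3.48 and 4.44. The values of Mmp10 overlapped those of both Mmp3 and Mmp13, and those of Mmp3 lay above those of Mmp13 in both libraries. Mmp7 had no fixed place in this order, since it was the highest of all in replicate 1, at 50.5, and was at 1.16 in replicate 3. The order of Mmp19 and Mmp14 in APAP depended on the length taken for each gene, as the shares below show.

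The makeup of the metalloproteinase transcripts was read from the same values. Mmp19 made up 65.3% ± 1.499 (SD, n = 3) of the summed CPM per kb of the 23 metalloproteinase genes in saline and 22.5% ± 9.99 (SD, n = 2) in APAP, whereas the share of Mmp14 was 16.8% ± 1.76 and 15.1% ± 3.01. With the length of the longest transcript in place of all exons, Mmp14 had the larger mean share in APAP. It was 23.8% ± 3.79 for Mmp14 and 19.9% ± 8.10 for Mmp19 (SD, n = 2). The cluster on chromosome 9 made up 1.79%, 2.18% and 5.04% in WT1, WT2 and WT3 and 65.4% and 43.3% in APAP replicates 1 and 3. Mmp7 alone gave 48.0% in replicate 1 and 1.62% in replicate 3. The summed level was 42.7, 40.7 and 29.1 CPM per kb in saline and 105.3 and 71.6 in APAP. That of the 4 TIMP genes was 8.25, 7.81 and 7.13 in saline and 8.30 and 10.8 in APAP. The ratio of the sums was thus 5.17, 5.21 and 4.08 in saline and 12.7 and 6.64 in APAP. Within the inhibitors, Timp1 had a share of 7.34%, 1.91% and 0% in saline and of 29.5% and 17.4% in APAP, beside Timp3 at 42.9% ± 3.79 in saline and 43.8% ± 6.71 in APAP. These sums and shares are descriptions of transcripts and were not tested.

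**Figure D4:**
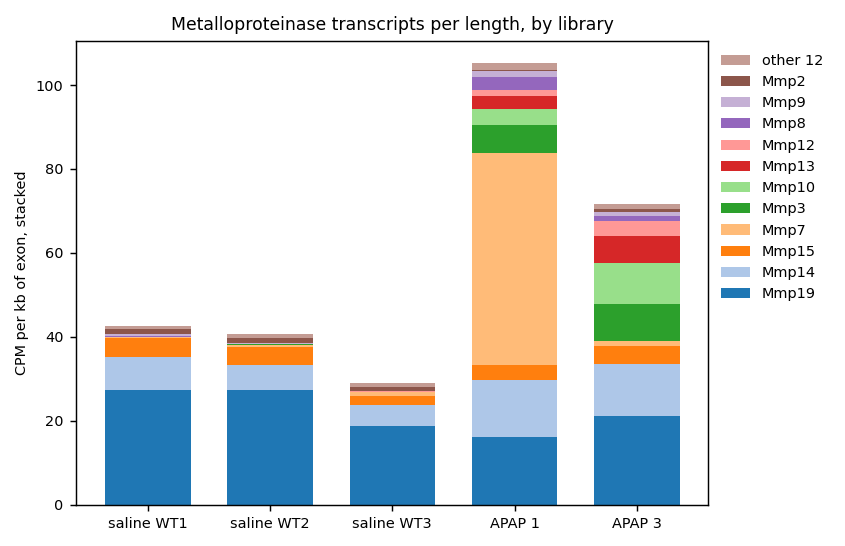
Stacked CPM per kb of exon of the metalloproteinase genes in each library (linear axis from 0). Mmp19 fills most of the 3 saline bars, whose totals are 42.7, 40.7 and 29.1, while the APAP bars reach 105.3 and 71.6 and include Mmp3, Mmp10, Mmp13 and Mmp12, and a block of Mmp7 in replicate 1.

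Among the 15 other metalloproteinase genes, 5 could be tested and Mmp8 alone was called, beside 7.23% of all genes tested. The most abundant by CPM were Mmp7 and the membrane-bound Mmp15, which had a log2 fold change of 0.15 (adjusted p = 0.830 in edgeR's quasi-likelihood test). Of the other inhibitors, 3 could be tested and 0 were called. Timp2, which with Mmp14 activates the Mmp2 proenzyme, had a log2 fold change of −0.40, and the plasma inhibitor Pzp one of 0.16. Without APAP replicate 1, WT2 or WT3 the count of other metalloproteinases called was 0, and it was 2 without APAP replicate 3, which leaves the 1 APAP library with the high Mmp7 count.

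Proteins that activate or hold the metalloproteinases were read next. Of 11 tested, 2 rose and 1 fell, beside 3.7% and 3.53% of all genes tested, with a median log2 fold change of 0.45. Lcn2, lipocalin 2, which forms a complex with Mmp9, had 34810 and 10693 counts in APAP and 132, 143 and 930 in saline. Plaur, the urokinase receptor, had 99 and 124 counts against 13, 6 and 10. Both rose, with log2 fold changes of 5.60 and 3.20 (adjusted p = 0.023 and 0.017 in edgeR's quasi-likelihood test). Pcsk6, a proprotein convertase, fell by 1.06 on the log2 scale. Plasminogen (Plg), the most abundant beside Lcn2, had a log2 fold change of −0.91 and did not pass. With 1 library left out, Plaur and Lcn2 were each called in 2 of 5 fits and Pcsk6 in 0, and the count of higher genes was 0 without APAP replicate 1, 0 without WT2, 1 without APAP replicate 3 and 1 without WT1.

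Of 14 related ADAM and ADAMTS proteases, 1 rose, beside 3.7% of all genes tested. Adamts1, which cuts versican and aggrecan, had a log2 fold change of 1.73 (adjusted p = 0.012 in edgeR's quasi-likelihood test) and was not called without APAP replicate 3 or without WT2. The most abundant, Adam9 and Adam10, had log2 fold changes of −0.66 and 0.74.

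Among 18 matrix proteins that metalloproteinases cut, 7 rose and 0 fell, with a median log2 fold change of 0.64. Of all genes tested, 3.7% rose and 3.53% fell. The 7, with their log2 fold changes, were Nid1 (nidogen 1, 3.39), Tnc (tenascin C, 3.21), Spp1 (osteopontin, 2.88), Col1a1 (collagen type I, 1.97), Col4a1 (1.90), Col4a2 (1.59) and Lamc1 (laminin gamma 1, 0.82). Other genes of the basement membrane, where nidogen, collagen type IV and laminins lie, did not pass. Col18a1 had a log2 fold change of −1.05, with both APAP libraries below saline, Hspg2 one of 0.10, Lama5 one of 1.40 and Lamb1 one of 0.72. Nid1, Col4a1 and Spp1 were called in all 5 fits with 1 library left out, of which 2 have a single APAP library, whereas Col1a1 and Lamc1 were called in 0 of 5 such fits, and 3 genes of the list were called without APAP replicate 3 and 3 without WT2. The most abundant members, Fn1 (fibronectin) and Vtn (vitronectin), had log2 fold changes of 0.26 and −0.71 and did not pass.

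The list of transcription factors and cytokines known to act on metalloproteinase genes had 22 genes, of which 17 could be tested. Of these, 9 rose and 0 fell, beside 3.7% and 3.53% of all genes tested, with a median log2 fold change of 2.01. The 9 were the AP-1 genes Fos, Fosb, Fosl1, Jun and Junb, the related Atf3, the factors Ets2 and Runx1, and Hbegf, a growth factor of the EGF family. The AP-1 genes Fosl2 and Jund, with log2 fold changes of 1.17 and 0.47, and Ets1, with 0.37, did not pass. Fosl1 had 362 and 369 counts in APAP and 0, 0 and 1 in saline, at least 82.0-fold higher. Like Fosb, with 2, 0 and 2 saline counts, Fosl1 passed the filter on low counts only through the APAP libraries. Atf3 had 3324 and 1776 against 23, 20 and 55. Jun, the most abundant in APAP replicate 3, had 1498 and 8972 counts against 171, 163 and 539, a log2 fold change of 3.95 (adjusted p = 0.038 in edgeR's quasi-likelihood test) that was 2.07 without APAP replicate 3. The 9 genes differed in how the APAP livers compared. The CPM of replicate 3 was 6.30, 2.92, 2.76 and 2.73 times that of replicate 1 for Jun, Fosb, Fos and Junb, and 1.29, 1.07, 1.01 and 0.942 times for Hbegf, Fosl1, Runx1 and Ets2. For Atf3 it was 0.562 times. Stat3, the other abundant gene, had a log2 fold change of 0.05. The cytokine genes Il6, Tnf, Osm, Il11 and Lif had at most 10 counts in any library and were not tested, and Il1b had a log2 fold change of 0.78 that did not pass. The count of genes called higher was 3 without APAP replicate 3, 4 without WT1 and 2 without WT2, and Fosl1 and Atf3 were called in all 5 such fits, the 2 with a single APAP library included.

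**Figure D5:**
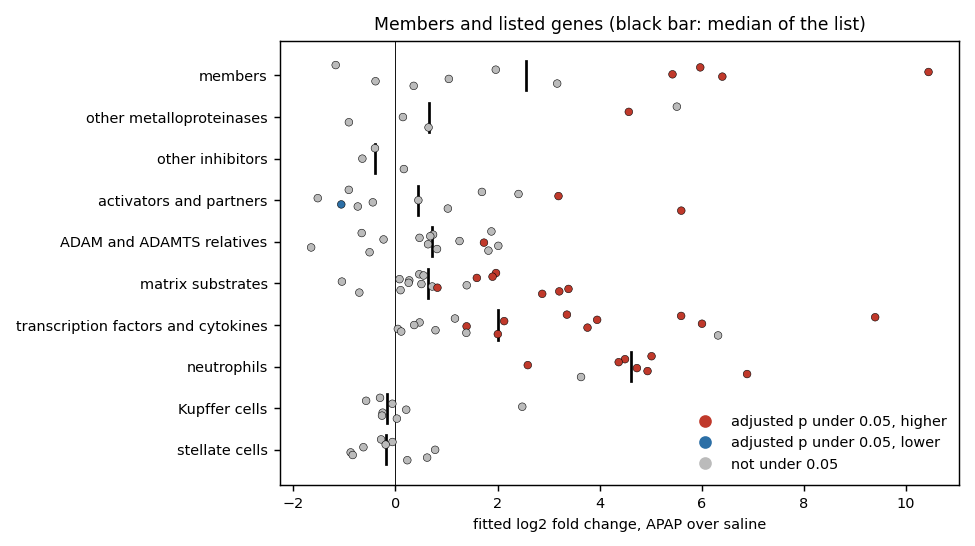
Fitted log2 fold change of APAP over saline for each tested gene among the 10 metalloproteinase and TIMP genes and in 9 other gene lists. Red and blue mark an adjusted p under 0.05, higher and lower, in edgeR's quasi-likelihood test, and black bars are medians. Neutrophil markers (median 4.62) and the transcription factors and cytokines (2.01) lie to the right, Kupffer and stellate cell markers around 0.

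Markers of the cells that could make these enzymes were set beside them. For comparison, 3.7% of all genes tested rose and 3.53% fell. Of 8 tested neutrophil markers, 7 rose (S100a8, S100a9, Cxcr2, Csf3r, Retnlg, Ngp and Camp). The summed CPM of the list was between 77.9 and 117 in APAP and between 4.30 and 8.82 in saline, where Camp and Ly6g were at 0 in every library. S100a8, Cxcr2, Retnlg, Ngp and Camp passed the filter on low counts only through the APAP libraries. They could be called higher but not lower, so the shares of all genes are no like background for them. Of 7 monocyte and macrophage markers (8 rows of the table), 2 rose (Ccr2 and Chil3), with sums of 259.9 to 362.5 CPM against 367.8 to 695.8 that were led by F10, which hepatocytes also make. Of 8 Kupffer cell markers and 9 stellate cell markers, 0 were called, with median log2 fold changes of −0.16 and −0.19 and sums of 272.7 to 475.8 against 271 to 402.9 and of 372.8 to 506.5 against 496.8 to 619.2. Of 5 myofibroblast markers, 2 rose (Tagln and Col1a1), with sums of 46.4 to 117 CPM against 20.3 to 28.8. Of 4 tested cholangiocyte markers, 1 rose (Sox9), with sums of 42.8 to 71.1 against 7.08 to 10.02. Of 7 sinusoidal endothelial markers, 5 hepatocyte markers and 2 lymphocyte markers tested, 0 were called, with sums of 113.9 to 190.1 against 122 to 193.6, of 70561 to 111529 against 111837 to 155114 and of 3.82 to 3.96 against 3.94 to 5.56. The part of any of these cells in the levels of the metalloproteinases was not tested.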

How the data were processed

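RNA was extracted from livers with TRIzol, and libraries were sequenced on an Illumina NovaSeq platform. The authors obtained 1 raw read count per gene and library after alignment with HISAT2, and these deposited counts, without normalization, were used here. The 5 deposited columns of FPKM were not used. Builds GRCm38 and mm10 are named in the submitters' processing notes. The annotation, strand setting and versions are not given in the sources used here. Of 34745 identifiers, 34267 were found in GENCODE M21, from which exon lengths were taken, and coordinates are those of the deposited table.

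The analysis used edgeR 4.0.16 in R 4.3.3. Low genes were removed by filterByExpr (a minimum count of 10 and a total of 15), and the remaining genes were normalized by TMM and compared by the quasi-likelihood test with Benjamini-Hochberg adjustment. The SE of a log2 fold change was taken from that test's F statistic. CPM used TMM-scaled library sizes. The total count was between 13378445 and 15976339, and a floor of 3 counts, which covers counting error only, was used for lower bounds. The comparison, planned with 3 APAP libraries, was run with 2. The tests across genes were tested on simulated data. No 2 libraries agreed within sampling noise.

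The genes described, the gene and marker lists and the motifs were chosen with earlier results of these data known. Named genes were the 10 members, every called gene and the 2 most abundant tested genes of each pathway list, genes of the chromosome 9 cluster and overlapping genes. A gene first listed among the activators is not reported here. Other genes (Col18a1, Hspg2, Lama5, Lamb1, Fosl2, Jund, Ets1, untested cytokines, Il1b, markers) were named after their values were seen. As alternatives, the exact and likelihood ratio tests of edgeR, DESeq2 1.42.0, RLE, upper-quartile and library size scaling, 2 other filters, 2 other adjusted p thresholds, the length of the longest transcript, and leaving out each library in turn were tried. Promoters are from RefSeq (GRCm38.p6), read with Python 3.11.15.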

Additional observations from a re-analysis of the deposited data

How the results depend on the processing

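Over all genes, the 993 called (508 higher, 485 lower) became 1835 (966 and 869) with the likelihood ratio test, 1776 (949 and 827) with edgeR's exact test and 2093 (938 and 1155) with DESeq2. Scaling to library size only gave 1042 higher and 297 lower, raising the share of higher calls from 51.2% to 77.8%. With each library left out in turn, between 165 (without WT2) and 922 genes were called, between 87 and 434 higher and between 78 and 488 lower. Of the 10 metalloproteinase and TIMP genes, 7 were called higher with the likelihood ratio and exact tests and 5 with DESeq2. The number was 1 with at least 10 counts in every library, where only 4 of them were tested. It was between 4 and 6 with 1 saline library left out. The log2 fold change of Timp3 ranged from −0.039, a reversal, without APAP replicate 3 to 0.67 without APAP replicate 1.

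With library size only, 2 other metalloproteinases and 2 ADAM relatives were higher and 0 activators lower. At a fold change of 1.5 and an unadjusted p under 0.05, a threshold added after the data were seen, 2 other metalloproteinases, 5 activators and 4 ADAM relatives were higher, and 3 activators, 1 ADAM relative and 1 matrix protein lower. With 1 library left out, the numbers called higher ranged from 0 to 2 (other metalloproteinases), 0 to 2 (activators), 0 to 1 (ADAM relatives), 3 to 5 (matrix proteins) and 2 to 8 (transcription factors and cytokines), and 0 activators were lower. With the longest transcript as length, the cluster's share was 48.6% in APAP and 2.69% in saline. The share of Mmp14 moved to 23.8% in APAP and 26.0% in saline, and that of Mmp19 to 19.9% and 57.3%. Timp3 moved to 56.4% and 55.2% of the inhibitors. The causes of these shifts were not tested. No paired analysis was possible because the saline columns, named WT1 to WT3, could not be matched to the numbered saline samples. With 2 APAP libraries and at most 7 saline counts for Mmp3, Mmp10, Mmp12 and Mmp13, the size of their fold changes is known only within wide intervals.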
